A study of Mus musculus with 2 samples.

Results

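Histone modifying enzyme genes are described here as the protein-coding genes whose symbols belong to the Kmt, Setd, Setdb, Suv39h, Ehmt, Ezh, Nsd, Prdm, Prmt, Kdm, Kat, Hdac and Sirt series of the mouse RefSeq gene table (assembly GRCm38.p6, equivalent to mm10), without Setd4, which the rule leaves out. The rule found 92 genes of 21883 protein-coding genes. A region belonged to a gene when it overlapped the gene model widened by 5 kb on both sides, which gave 174 distinct regions of the 35861 in the series, none of them shared between members. The series compared 2 groups of primary chondrocytes from C57BL/6 mice, taken from knee cartilage at postnatal day 3 and treated with recombinant human BMP-2, a growth factor of cartilage and bone, at 100 ng/ml for 24 hours. One group carried a conditional knockout of Uhrf1 (Uhrf1 cKO) and the other was Control, each with 1 library. DNA sheared to about 300 bp was captured with the MBD2 protein, which binds methylated CpG, and sequenced. The promoter that drives the recombinase and any pooling of animals are not given in the labels, and DNA capture gives no expression by which the cell type could be checked.

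Uhrf1 recognises hemimethylated DNA at the replication fork and recruits the maintenance methyltransferase Dnmt1, and it also binds histone H3. Histone modifying enzymes add or remove methyl and acetyl groups on histone tails: methyltransferases and demethylases act on lysine or arginine, acetyltransferases and deacetylases on lysine. Several of these systems are coupled to DNA methylation, and deacetylases such as Hdac4 are known regulators of chondrocyte hypertrophy. The CpG-rich promoters of widely expressed genes are as a rule unmethylated, whereas gene bodies carry CpG methylation.

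The cKO library held 15039206 tags and the Control library 9782276 tags after duplicates were removed, a step that discarded 23.9% of the cKO tags and 55.2% of the Control tags. The deposited list holds regions in which Control capture exceeded cKO capture, so each value below runs Control over cKO. The fold is the authors' ratio between the Control signal at a region's summit and the cKO background there, and the tag count is that of the Control library. The FDR is the authors' percentage of regions found at the same p or better when the libraries were swapped, limited to 100%. Regions with more cKO than Control capture were not analysed here, nor were cKO tags per region. With 1 library per group no value has a replicate check and no test of a genotype difference was possible. In libraries made from many cells, loss in some cells and partial loss in all cells cannot be told apart.

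Most histone modifying enzyme genes carried at least 1 region of lower cKO capture. A region lay in or within 5 kb of 62 of the 92 genes (67.4%, 95% Wilson interval 57.3 to 76.1), where 47.4% of all protein-coding genes had one. When regions were limited to an FDR of at most 5%, 50 of the 92 genes had one (54.3%, 44.2 to 64.1), where 35.1% of all protein-coding genes did. The remaining 12 genes with a region had only regions over that limit: Hdac2, Hdac5, Kat2a, Kat6a, Kdm3a, Kdm5b, Kdm5c, Kmt2c, Kmt2e, Setd1a, Setdb1 and Sirt5. Of the 62 genes, 21 had 1 region, 16 had 2, 16 had 3 or 4, and 9 had 5 or more. The 5 genes with the most regions, Prdm16, Kdm2b, Kat2b, Nsd3 and Prdm6, together held 44 of the 174 regions (25.3%). Intervals on shares and densities cover counting error only.

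**Figure D1:**
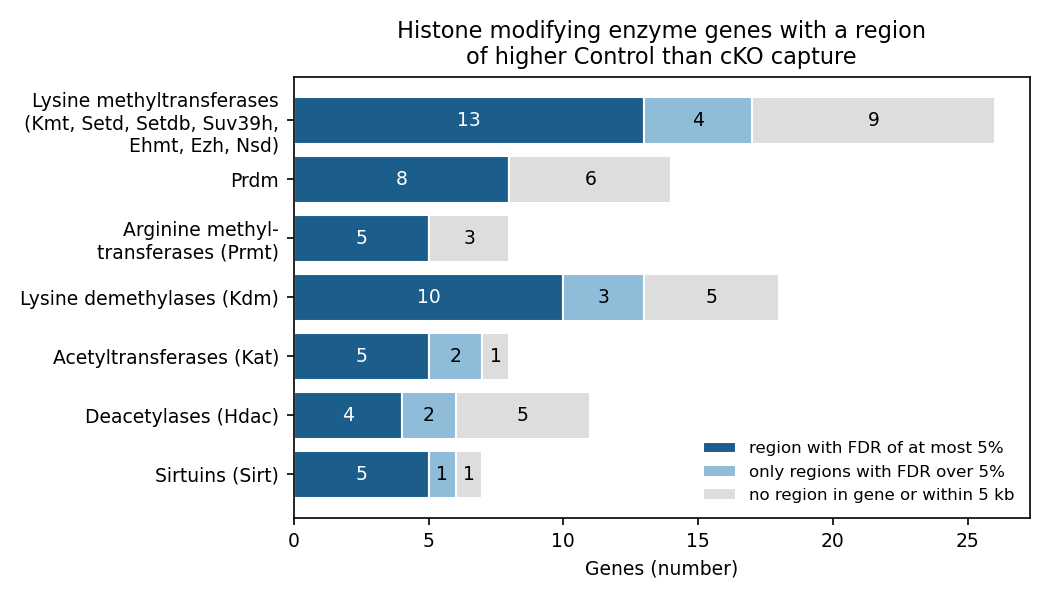
Number of histone modifying enzyme genes (x axis) in each family (y axis) that had a region with an FDR of at most 5%, only regions with a higher FDR, or none in the widened gene model. Kat genes (7 of 8) and Sirt genes (6 of 7) had the highest shares with a region, and Hdac genes (6 of 11) the lowest. Of all protein-coding genes, 47.4% had one. The Wilson intervals of these families overlapped: 52.9 to 97.8% for Kat, 48.7 to 97.4% for Sirt and 28.0 to 78.7% for Hdac.

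The share with a region followed gene length. Histone modifying enzyme genes had a median length of 41.3 kb, against 17.1 kb for other protein-coding genes, and a longer gene meets more regions. Among genes under 20 kb, 10 of 22 members had a region (45.5%, 26.9 to 65.3), against 30.4% of other genes of that length. Among genes of 20 to 100 kb, 37 of 53 members had one (69.8%, 56.5 to 80.5), against 61.7% of other genes. Among genes over 100 kb, 15 of 17 members had one (88.2%, 65.7 to 96.7), against 84.9%. Each interval of the members thus held the share of other genes of like length. With an FDR of at most 5% the same was true above 20 kb, whereas below it 9 of 22 members had a region (40.9%, 23.3 to 61.3), against 20.7% of other genes. The members' widened spans held 24.1 regions per Mb (exact Poisson interval 20.7 to 28.0), against 19.0 for the spans of other protein-coding genes (18.8 to 19.3). This density was not matched on length, CpG content or chromosome.

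**Figure D2:**
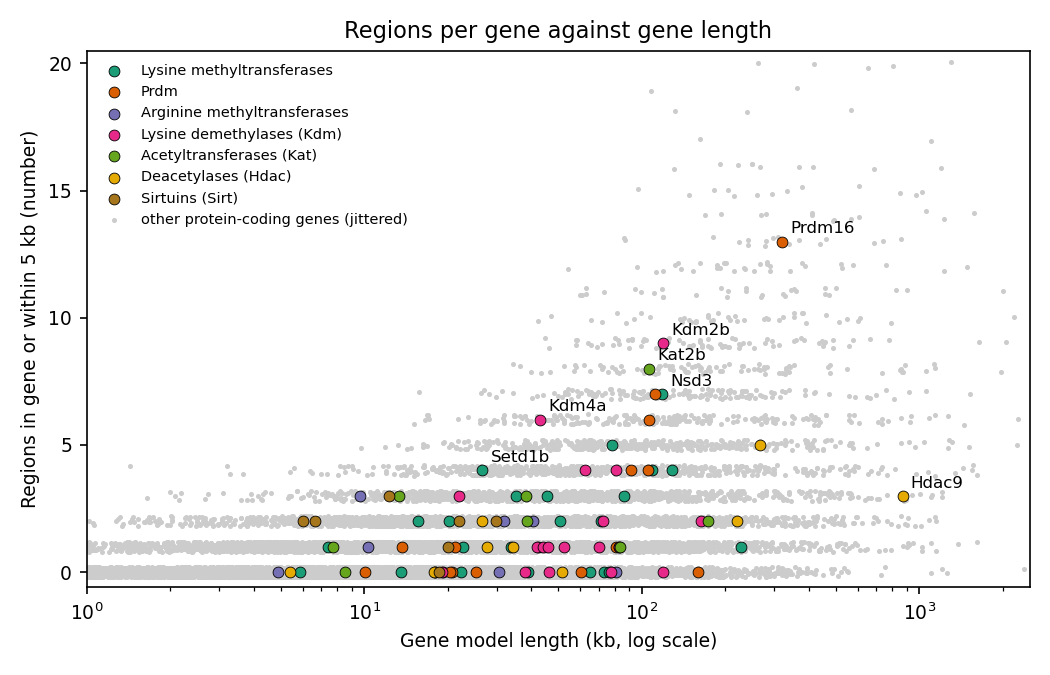
Number of regions in the widened gene model (y axis) against gene model length in kb (x axis, log scale) for the 92 histone modifying enzyme genes, coloured by family, with other protein-coding genes in grey and shifted slightly up or down to separate them. The 18 other genes with more than 20 regions lie above the axis limit. Prdm16 had 13 regions over 321 kb, Kdm2b 9 over 119 kb, and the 870 kb Hdac9 had 3.

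Most summits lay within the gene models, a share largely set by the choice of regions. Only regions in the models or within 5 kb were taken, so most of the span searched was gene body. The summit of 149 of the 174 regions (85.6%, Wilson interval 79.7 to 90.1) fell within the gene model, against 79.9% of 24598 pairs of a region and another protein-coding gene, whose models are shorter. Annotated starts and strand were matched in the RefSeq promoter table (GRCm38.p6) for 73 of the 92 genes. None of these 73 genes had a region overlapping a promoter window, taken as 250 bases before to 50 after an annotated start, which allows a share of up to 4.11% by counting alone. Over all protein-coding genes with an entry, 0.955% had such a region, so the absence is near the background. Widened to 1 kb on either side of an annotated start, 4 of the 73 genes had a region (5.48%, 2.15 to 13.3), close to the 3.98% of all protein-coding genes. Those 4 were Ezh1, Sirt5, Sirt4 and Kat2b.

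Distances from the starts were close to those at other genes, although no member summit lay within 2 kb downstream, where few lay in other genes. Of 128 pairs of a region and a member with known strand, 6 had a summit within 2 kb upstream of the nearest annotated start (4.69%), against 3.74% of 19600 pairs in other genes. No pair had a summit within 2 kb downstream (Wilson interval 0 to 2.91%), against 3.16% of pairs in other genes. That interval takes the pairs as independent, but several came from the same gene, 13 of them from Prdm16. Within 5 kb downstream there were 14 pairs (10.9%, Wilson interval 6.63 to 17.5), against 1961 of the 19600 in other genes, a share inside that interval. All 14 lay at 2 to 5 kb, where 6.84% of pairs in other genes lay, also inside that interval. The first downstream summits belonged to Sirt1, a nuclear deacetylase, at 2014 bp and Kdm4a at 2015 bp, just past the 2 kb limit. The median distance to a start was 22.1 kb for members and 21.0 kb for other genes.

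**Figure D3:**
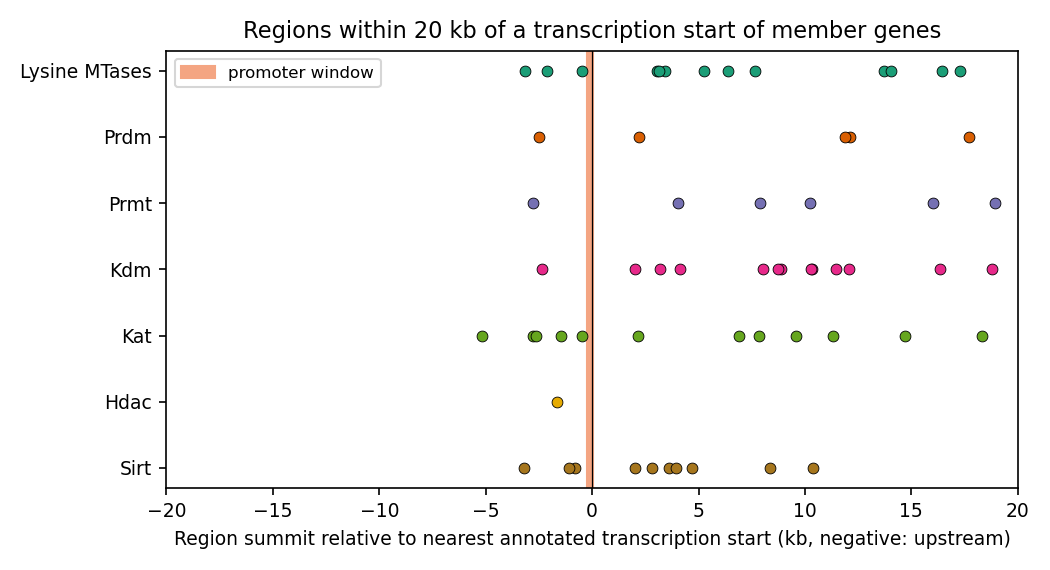
Position of each region summit relative to the nearest annotated transcription start (x axis, kb, negative values upstream) for members with known strand, by family (y axis), within 20 kb of the start. The shaded band is the promoter window. The nearest summits lie upstream, at 480 bp for an internal start of Kat2b and 484 bp for Ezh1, and none lies between the start and 2 kb downstream.

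The promoter windows of these genes were rich in CpG, the dinucleotide whose methylation MBD2 binds. The letters CG, which read the same on both strands, occurred a median of 21.5 times in 100 windows of members, against 13 times in 21162 windows of other protein-coding genes. At least 1 CG was present in 97.0% of the members' windows, against 95.4% of the others, and at least 10 were present in 86.0%, against 56.6%. Among windows of other genes, 0.464% of those with up to 4 CG overlapped a region, 2.12% of those with 5 to 9, 1.23% of those with 10 up to 20, and 0.343% of those with 20 or more. Of the members' windows 57 had 20 or more CG.

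The windows of the 4 genes with a region within 1 kb of an annotated start are shown. These are the closest that regions came to a start among the members whose starts were matched. The regions near the Sirt5 and Sirt4 starts had an FDR of 100%, and those near Ezh1 and the internal start of Kat2b 2.61% and 0%. The windows run 5′ to 3′ from RefSeq (GRCm38.p6), with each CG in capitals. The Ezh1 window (chr11:101226414-101226713, minus strand) had 23 CG and lay 7 bp from its region. The Sirt5 window (chr13:43365285-43365584, plus strand) had 15 CG and lay 428 bp from its region. The Sirt4 window (chr5:115484248-115484547, minus strand) had 15 CG and lay 514 bp from its region. Kat2b has an outer window (chr17:53566721-53567020, plus strand) with 11 CG, 11694 bp from the nearest region, and an internal one (chr17:53583876-53584175, plus strand) with 6 CG, 23 bp from a region.
Ezh1: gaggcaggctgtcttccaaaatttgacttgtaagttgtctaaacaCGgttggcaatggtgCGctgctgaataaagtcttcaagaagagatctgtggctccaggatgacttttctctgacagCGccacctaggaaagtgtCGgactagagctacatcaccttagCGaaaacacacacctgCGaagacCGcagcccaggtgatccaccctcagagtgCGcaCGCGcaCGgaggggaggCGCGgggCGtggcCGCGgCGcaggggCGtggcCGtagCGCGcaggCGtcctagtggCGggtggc
Sirt5: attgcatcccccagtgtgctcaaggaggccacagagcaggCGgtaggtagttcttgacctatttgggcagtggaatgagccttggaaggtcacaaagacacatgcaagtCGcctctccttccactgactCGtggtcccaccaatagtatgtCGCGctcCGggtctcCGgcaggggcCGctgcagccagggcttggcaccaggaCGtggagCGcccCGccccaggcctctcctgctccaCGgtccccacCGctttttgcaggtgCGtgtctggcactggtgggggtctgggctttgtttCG
Sirt4: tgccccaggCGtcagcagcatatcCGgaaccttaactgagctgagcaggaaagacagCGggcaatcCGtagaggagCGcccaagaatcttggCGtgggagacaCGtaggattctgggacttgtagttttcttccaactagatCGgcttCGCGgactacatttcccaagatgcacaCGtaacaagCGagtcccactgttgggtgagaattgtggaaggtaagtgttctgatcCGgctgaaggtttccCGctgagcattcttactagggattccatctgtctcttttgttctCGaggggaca
Kat2b outer start: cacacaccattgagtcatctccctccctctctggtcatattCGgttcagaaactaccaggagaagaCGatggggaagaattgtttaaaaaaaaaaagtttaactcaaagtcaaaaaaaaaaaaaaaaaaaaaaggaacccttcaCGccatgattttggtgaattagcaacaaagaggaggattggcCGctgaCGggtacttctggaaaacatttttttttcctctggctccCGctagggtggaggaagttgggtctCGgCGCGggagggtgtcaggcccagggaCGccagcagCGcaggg
Kat2b internal start: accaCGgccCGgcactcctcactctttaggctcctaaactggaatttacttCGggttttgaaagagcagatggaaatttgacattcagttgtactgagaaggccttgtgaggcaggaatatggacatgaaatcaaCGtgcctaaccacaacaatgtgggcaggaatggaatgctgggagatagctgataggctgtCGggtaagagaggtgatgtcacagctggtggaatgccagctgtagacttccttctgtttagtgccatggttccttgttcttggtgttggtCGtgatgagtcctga
The pair of Kat2b windows differed in CpG frequency relative to base composition, with an observed over expected ratio of 0.357 at the internal start and 0.672 at the outer one. In the Ezh1 window the ratio was 0.882, and 16 of its 23 CG lay in the last 100 bases, on the side away from the region.

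Around the ends of the gene models, 11 of the 92 genes had a region within 1 kb (12.0%, Wilson interval 6.81 to 20.2), near the 9.64% of all protein-coding genes. With an FDR of at most 5% there were 6 (6.52%), against 6.11%. Of the 11 regions, 2 lay at the start of the model, 6 at its 3′ end and 3 at genes whose strand is not given. At the start stood Ezh1, a catalytic subunit of Polycomb repressive complex 2 (79 tags, 13.6-fold, FDR 2.61%), and Sirt5, a mitochondrial deacylase (51 tags, 6.93-fold, FDR 100%). At the 3′ end, Prmt5, which forms symmetric dimethylarginine, had 272 tags and a 13.9-fold excess across its end at chr14:54506898-54507498 (FDR 0%). Prdm16, a regulator of brown fat and craniofacial development, had 308 tags and a 24.3-fold excess 817 bp inside its 3′ end (FDR 0%). The 3′ regions of Sirt6 (107 tags, 8.05-fold, FDR 6.29%), Hdac4 (64 tags, 9.87-fold, FDR 86.23%), Prmt9 (17 tags, 32.7-fold, FDR 82.97%) and Kdm5c (62 tags, 6.95-fold, FDR 100%) all exceeded the 5% limit. The 3 of unknown strand were Kdm6b (353 tags, 8.31-fold, FDR 0%), Kmt2b (189 tags, 16.01-fold, FDR 0%), whose region overlapped Igflr1, and Prdm6 (74 tags, 43.9-fold, FDR 0.02%).

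Among lysine methyltransferases, 17 of 26 genes had a region (65.4%, Wilson interval 46.2 to 80.6), beside 47.4% of all protein-coding genes. An FDR of at most 5% was met in 13 of the 26, beside 35.1% of all protein-coding genes. The 17 genes held 46 regions with a median fold of 12.6. The Kmt2 and Setd1 series includes writers of H3K4 methylation, the mark of active promoters and enhancers. All of its genes had a region: Kmt2a, Kmt2b, Kmt2c, Kmt2d, Kmt2e, Setd1a and Setd1b, with 16 regions from 6.51-fold to 28.2-fold. These 7 were grouped after the regions were seen. Beside them, 47.4% of all protein-coding genes had a region, as did 61.7% of other genes of 20 to 100 kb, the length of 6 of the 7, and 84.9% of longer ones. An FDR of at most 5% was met in 4 of the 7. Setd1b, the last of the 5 densest members with at least 3 regions, had 4 regions in 26.6 kb. They formed pairs 196 bp and 124 bp apart, with 187 and 116 tags in the first pair (13.4-fold and 10.7-fold) and 290 and 330 tags in the second (16.7-fold and 23.4-fold). Its strongest region, at chr5:123165160-123166080, ranked 154 by score among all 35861. Kmt2a, the MLL1 methyltransferase, had 5 regions, of which the one at chr9:44810781-44811471 had 209 tags at 17.8-fold and the others 63 to 119 tags at 6.51-fold to 11.97-fold. In Kmt2d the single region had 157 tags at 28.2-fold (FDR 0%), whereas the single region of Kmt2c lay outside the gene with 149 tags at 7.23-fold (FDR 6.83%). The regions of Setd1a (100 tags, 11.1-fold) and Kmt2e (18 and 87 tags, 12.4-fold and 6.84-fold) had an FDR of 13.08% or more.

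Genes for H3K9 methyltransferases, which build heterochromatin and repress through a mark that Uhrf1 itself reads, had regions in 3 of 6 cases. That is near the 47.4% of all protein-coding genes. An FDR of at most 5% was met in 2 of the 6, beside 35.1% of all protein-coding genes. Ehmt1 had 4 regions, the largest with 205 tags at 8.61-fold (FDR 0%). Ehmt2, which encodes the partner enzyme G9a, had 2, with 51 tags at 8.55-fold (FDR 84.59%) and 105 tags at 10.9-fold (FDR 2.07%). Setdb1, the enzyme that silences retroelements, had 1 thin region of 34 tags (10.5-fold, FDR 100%). Suv39h1, Suv39h2 and Setdb2 had none. Suv39h2 was just outside the 5 kb limit, with a region 5.11 kb away that had 99 tags at 7.08-fold (FDR 62.89%). Just inside the limit, Kdm6b had a region 4987 bp from the gene with 149 tags at 9.52-fold (FDR 0.04%), which overlapped Dnah2.

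The H3K36 methyltransferases Nsd1, Nsd3 and Setd2 had 4, 7 and 3 regions, and Nsd2 had none. An FDR of at most 5% was met by 8 of these 14 regions: 2 in Nsd1, 5 in Nsd3 and 1 in Setd2. Among all protein-coding genes, 47.4% had a region and 35.1% had one with that FDR. Nsd3 had regions with 316 tags at 11.5-fold and 323 tags at 18.3-fold, both with an FDR of 0%, along with 3 thin ones of 13, 29 and 37 tags at 26.4-fold, 33.4-fold and 42.4-fold. High folds thus stood beside low tag counts within the same gene. In Nsd1 the main region had 299 tags at 14.6-fold and in Setd2 it had 187 tags at 14.4-fold, both with an FDR of 0%. Of the Polycomb methyltransferases, Ezh1 had 3 regions of 79 to 143 tags and Ezh2 had none within 61.7 kb. For H4K20 methylation, Kmt5b and Kmt5c had 2 and 1 regions and Kmt5a had none. Setd7, a monomethyltransferase of H3K4 and of other proteins, had 3 regions with 330 tags (11.4-fold), 102 tags (14.6-fold) and 264 tags (12.8-fold), each with an FDR of at most 0.1%. Setd3, Setd5 and Setd6 had none.

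The Prdm genes encode zinc finger proteins with a SET-like PR domain, many of them developmental transcription factors without shown enzyme activity. A region lay at 8 of the 14 (57.1%, Wilson interval 32.6 to 78.6), beside 47.4% of all protein-coding genes. Each of these 8 had one with an FDR of at most 5%, beside 35.1% of all protein-coding genes. Prdm16 had the most regions of all members, 13 with 17 to 308 tags and folds of 7.59 to 38.3, and 8 met an FDR of at most 5%. After the 3′ region, its largest counts were 193 tags at 13.7-fold and 161 tags at 19.3-fold. Prdm6 had 7 regions, but only 2 met that FDR: 249 tags at 18.7-fold, and the 43.9-fold region at its higher-coordinate end. Prdm10 had 6, with 126 to 166 tags in the 3 with the most tags, at 10.6-fold to 23.9-fold, and 67 tags at 36.1-fold in another (FDR 0.06%). The largest fold of all members, 61.9 with 44 tags (FDR 0.16%), was that of a 176 bp region in Prdm2 at chr4:143195886-143196061. It lay 98 bp from a region of 203 tags at 14.3-fold. Prdm1, the plasma cell and germ cell regulator Blimp1, had 4 regions, among them 332 tags at 9.84-fold. The germ cell genes Prdm14 and Prdm9 had 1 each inside the gene, with 303 tags at 17.8-fold (FDR 0%) and 133 tags at 7.19-fold (FDR 1.64%). Prdm11 also had 1, with 102 tags at 9.08-fold. Prdm4, Prdm8, Prdm12, Prdm13 and Prdm15 were among those with none.

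**Figure D4:**
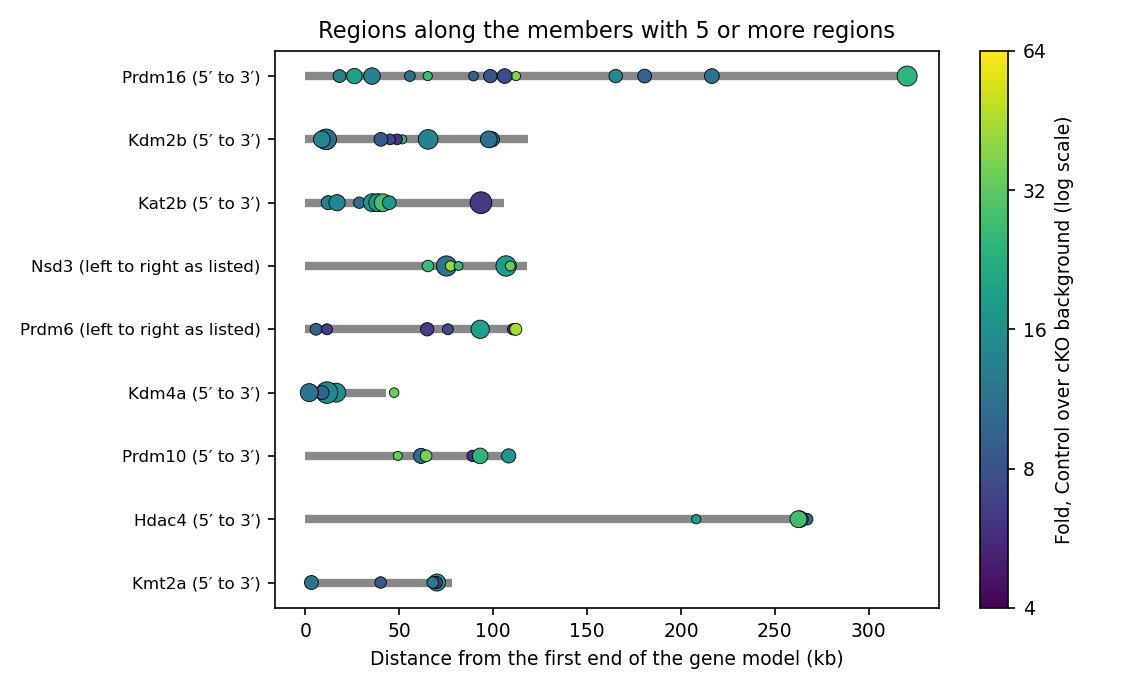
Regions along the 9 members with 5 or more regions, as distance in kb from the first end of the gene model (x axis); genes run 5′ to 3′ where the strand is known and otherwise from the lower coordinate. Point area grows with Control tags and colour gives the fold of Control over the cKO background on a log scale. Kat2b regions gather in the 44662 bp after its first end, 7 of 8. Hdac4 regions gather at the 3′ end, 4 of 5, of which 2 met an FDR of at most 5%.

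The arginine methyltransferase genes had a region in 5 of 8 cases (62.5%, Wilson interval 30.6 to 86.3), beside 47.4% of all protein-coding genes. Of their 9 regions, 8 met an FDR of at most 5%, beside 56.9% of all regions in the series. Prmt1, the main source of asymmetric dimethylarginine, was the densest member with at least 3 regions, at 0.153 regions per kb of its widened span. Its regions had 74 tags at 10.2-fold, 106 tags at 13.0-fold and, 2796 bp upstream of the start, 312 tags at 18.3-fold. Prmt7 had 2 regions of 303 and 228 tags at 10-fold and 18.3-fold, and Prmt3 had 1 of 268 tags at 18.6-fold. Prmt2, Prmt6 and the neuronal Prmt8 had none.

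Lysine demethylase genes had a region in 13 of 18 cases (72.2%, Wilson interval 49.1 to 87.5), beside 47.4% of all protein-coding genes. Those 13 genes held 36 regions at a median fold of 12.2. Kdm2b, which binds unmethylated CpG islands through a CXXC domain, had 9 regions with 16 to 334 tags. The 5 that met an FDR of at most 5% had folds of 10.8 to 14.2. Kdm4a, an H3K9 and H3K36 demethylase, had 6 in its 43.1 kb and 5 kb flanks, or 0.113 per kb of widened span. These included 369 tags at 14.8-fold, 274 tags at 15.8-fold, 238 tags at 11.9-fold, and 124 tags at 54.1-fold, the third largest fold of the members. The KDM1 amine oxidases had 1 each: 82 tags at 36.7-fold in Kdm1b (FDR 0%) and 39 tags at 33.8-fold upstream of Kdm1a (FDR 2.04%). Kdm5a, an H3K4 demethylase, had 4 regions with up to 327 tags (16.2-fold), whereas its relative Kdm5b had 2 thin ones with FDR of 51.39% and 100%. Among the rest, Kdm3b had 4 regions, the largest with 190 tags at 29.3-fold, and Kdm4c had 2 of 138 and 96 tags at 9.57-fold and 16.3-fold. Kdm2a (152 tags, 7.73-fold), Kdm7a (117 tags, 13.8-fold) and Kdm3a (75 tags, 13.2-fold, FDR 11.52%) had 1 each. Kdm6b, the H3K27 demethylase Jmjd3, had 3 with 353, 59 and 149 tags at 8.31-fold, 18.7-fold and 9.52-fold. Its relative Kdm6a had none within 130.0 kb.

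Kdm4b is the neighbour of the targeted gene, 2483 bp from Uhrf1 on chromosome 17, and had no region of its own. Uhrf1 held 5 regions from 7.32-fold to 24.6-fold, and the last ended 6814 bp from Kdm4b. The 77.8 kb of Kdm4b thus had no listed region although DNA beside it did. As Uhrf1 was itself targeted, fewer copies of its DNA and less methylation cannot be told apart there. Kdm4d, Kdm5d and Kdm8 also had none.

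Acetyltransferase genes had a region in 7 of 8 cases, 20 regions in all. That share (87.5%, Wilson interval 52.9 to 97.8) stood beside 47.4% of all protein-coding genes. Among other genes it was 30.4% under 20 kb, the class of Kat2a, Kat5 and Kat8. It was 61.7% at 20 to 100 kb (Kat7, Kat14 and Kat6a) and 84.9% over 100 kb (Kat6b and Kat2b). An FDR of at most 5% was met in 5 of the 8, beside 35.1% of all protein-coding genes. Kat2b, the coactivator PCAF, had 8, of which 7 met an FDR of at most 5%. In order from 5′ to 3′ they had 123, 184, 60, 235, 239, 227, 112 and 376 tags, and folds of 13.6, 14.5, 10.8, 17.0, 17.3, 28.1, 17.7 and 6.40. The most tagged region therefore had the smallest fold. The second of them lay beside the CG-poor internal start shown above. Kat7, the H3K14 acetyltransferase Hbo1, had 3 inside the gene with 171, 241 and 370 tags at 10.2-fold, 14.4-fold and 13.4-fold, all with an FDR of 0%. Kat8, the H4K16 acetyltransferase Mof, had 3 in a dense stretch of 0.129 per kb, with 194 and 115 tags upstream and 120 tags inside, at 7.60-fold to 10.8-fold, and the 194-tag region overlapped Bckdk. Kat14, a subunit of the ATAC complex, had 73 tags at 51.3-fold and 166 tags at 15.4-fold (both FDR 0%). Kat6a, Kat6b and Kat2a had 1, 2 and 1 regions of at most 103 tags, that of Kat2a overlapping Rab5c, and Kat5, the Tip60 acetyltransferase, had none.

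Deacetylase genes had the fewest regions for their length, 8.40 per Mb of widened span (exact Poisson interval 4.59 to 14.1). Hdac9 alone takes up 870 kb of that span with 3 regions, and without it the density was 14.0 per Mb (6.97 to 25.0), an interval that holds the 19.0 of other protein-coding genes. The Hdac9 regions were 177 tags at 6.32-fold, 84 tags at 6.88-fold and, 1658 bp upstream of the start, 43 tags at 56.0-fold (FDR 0.08%). Hdac4, which restrains chondrocyte hypertrophy by binding Runx2 and Mef2 factors, had 5 regions, 4 of them in a 5298 bp stretch at the 3′ end. In that stretch 197 tags stood at 14.3-fold and 201 tags at 27.4-fold inside the gene, both with an FDR of 0%. These 2 regions lay 40 bp apart, and only they met an FDR of at most 5% in Hdac4. The stretch also held 83 tags at 7.85-fold inside the gene (FDR 12.06%) and 64 tags at 9.87-fold just outside (FDR 86.23%). The Hdac4 region away from the stretch had 20 tags at 18.2-fold (FDR 100%). No region lay near the Hdac4 start, whose window held 32 CG. Hdac1 had 249 tags at 40.5-fold in one region (FDR 0%), rank 162 by score in the whole list, and 73 tags at 8.16-fold outside the gene (FDR 94.71%). Its partner Hdac2 had 1 of 55 tags at 6.20-fold (FDR 100%) and Hdac3 had none. Hdac5 had 1 of 53 tags at 10.2-fold (FDR 21.28%) and Hdac8 had 2 of 79 and 22 tags. Hdac6, Hdac7, Hdac10 and Hdac11 had none.

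Sirtuins are NAD-dependent deacylases, and 6 of the 7 genes had a region, 12 in all. That share (85.7%, Wilson interval 48.7 to 97.4) stood beside 47.4% of all protein-coding genes. The sirtuin genes had a median length of only 18.6 kb. The density was 64.8 per Mb of widened span (33.5 to 113), against 19.0 for other protein-coding genes. With 7 genes and 0.185 Mb this rests on few regions. Of the 12, 7 met an FDR of at most 5%, and 4 overlapped another coding gene in the flank. Those 4 were a region of 551 tags at Sirt7 that overlapped Mafg and 199 tags at Sirt2 in Rinl (both FDR 0%), 106 tags at Sirt5 in Nol7 (FDR 34.8%) and 45 tags at Sirt4 in Pla2g1b (FDR 100%). The Sirt7 and Mafg region, at chr11:120627752-120628630, had a 25.1-fold excess and ranked 21 by score of all 35861 regions, the highest of any at the members. A further region of 305 tags at 20.1-fold lay inside Sirt7, a nucleolar H3K18 deacetylase. Sirt1 had 250 tags at 15.6-fold and Sirt2 had 211 tags at 13.5-fold within the gene, both with an FDR of 0%. Sirt4, in the mitochondrion, had 80 tags at 14.1-fold (FDR 0.52%) in the gene and 66 tags at 5.59-fold near the start (FDR 100%). Sirt6 had 131 tags at 7.80-fold beyond its 3′ end, and Sirt3 had none.

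As single values, the 174 regions were like the list they came from. Their median fold was 12.6 (interquartile range 9.17 to 17.8), against 12.2 for the other 35687 regions (8.55 to 18.3), and their median tag count was 114, against 103. An FDR of at most 5% applied to 110 regions (63.2%, Wilson interval 55.8 to 70.0), against 56.8% of the others, and an FDR of 100% to 24 (13.8%), against 16.2%. Member regions with an FDR of 100% had a median of 50.5 tags, and those with at most 5% a median of 173.5. Folds ran from 4.72 in Kdm5b to 61.9 in Prdm2. Of the 25 regions whose summit lay outside the member, 9 overlapped another protein-coding gene, so they cannot be credited to the member alone.

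**Figure D5:**
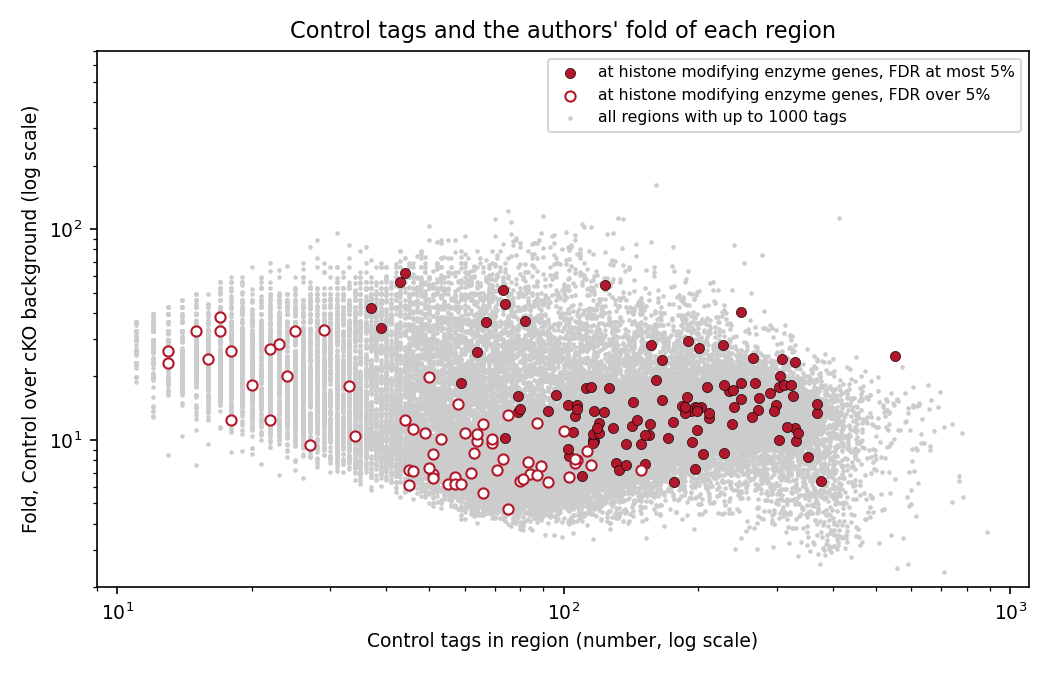
Control tags per region (x axis, log scale) against the authors' fold of Control over the cKO background (y axis, log scale) for regions at histone modifying enzyme genes, filled where the FDR was at most 5% and open where it was higher, with all regions of up to 1000 tags in grey. Member regions spread through the grey cloud, and those with folds above 20 include many of under 50 tags.

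By chromosome, 60 of 86 autosomal members had a region (69.8%), against 48.9% of other autosomal genes. On X, 2 of 5 did (Kdm5c and Hdac8, while Hdac6, Suv39h1 and Kdm6a had none), against 23.0% of other X genes, and Kdm5d on Y had none. The sex of the animals is not given, so copy number on X and Y is not known.

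Other chromatin genes also carried regions in most cases. Of 23 histone modifying enzymes outside the naming rule, 17 had a region in the widened gene model (73.9%, Wilson interval 53.5 to 87.5). Of 28 genes for partner subunits and readers, 22 did (78.6%, 60.5 to 89.8), beside 47.4% of all protein-coding genes. These lists were not matched on length, with medians of 57.3 and 30.0 kb. With an FDR of at most 5% the counts were 14 of 23 and 18 of 28, beside 35.1% of all protein-coding genes. Smyd3, a long methyltransferase gene, had 18 regions, and Mecom, a Prdm relative, had 9. The coactivator Ep300 had 81 tags at 58.2-fold (FDR 0%), and Trrap, a scaffold of acetyltransferase complexes, had 159 tags at 66.1-fold (FDR 0%) among its 9. The Polycomb partners of Ezh1 and Ezh2 were split: Jarid2 had 7, Rbbp4 had 4 and Eed had 1, while Suz12 and Rbbp7 had none. In the 191 kb Jarid2, 2 of the 7 met an FDR of at most 5%, as did 2 of the 4 in Rbbp4 and the 1 in Eed.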

How the data were processed

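The submitters deposited 1 list of regions for the pair of libraries. Per the file headers, the authors called them with MACS 1.4.2, with Control as the enriched file and cKO as background, a p limit of 1e-10, at most 1 tag kept per position, a tag size of 55 bp and a modelled shift of 58 bp. Per the submitters' processing notes the genome was mm10, and the aligner is not given in the sources used here. The deposited count gives Control tags per region, unscaled. The deposited score is the authors' log10 p multiplied by minus 10, the deposited fold is a ratio, and the deposited FDR is a percent value. Tag counts, 13 to 551 at the members, set the precision of each region.

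Regions were joined to RefSeq gene models of GRCm38.p6 by position. Starts and strand came from the RefSeq promoter table, with windows of 300 bases, and exons were not used here. Summits were taken as region start plus offset minus 1. The overlap code was tested on simulated data. The members, lists and alternatives were chosen with earlier results of these data known. The genes named were all those with a region within 1 kb of an end, the 5 with the most regions, the 5 densest among those with at least 3, the 5 largest folds and tag counts, and the members without a region. Further members were named to cover each family after their values were seen. With 1 library per group no test was made, and counts of genes are set beside all protein-coding genes. Groups by substrate were formed after the regions were seen. The tools were pandas 2.3.3 and NumPy 2.4.6 for joining, SciPy 1.17.1 for intervals and Matplotlib 3.10.9 for figures, under Python 3.11.15. One member is counted but not reported by name here.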

Additional observations from a re-analysis of the deposited data

How the results depend on the processing

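The number of members with a region, 62, stayed between 50 and 66 under limits on p of 1e-15 and 1e-20, an FDR of at most 5%, flanks of 0, 1 and 10 kb, and summits in place of overlap. In each of these settings the share of members exceeded that of other genes, with no matching on length. The number at a gene end, 11, was 7 at a p of 1e-20, 6 with an FDR of at most 5% and 21 with a window of 2 kb. Measured at annotated starts, an alternative added after seeing the data, it was 0 in promoter windows and 4 within 1 kb. With an FDR of at most 5% the regions numbered 110 in place of 174, the median fold was 14.05 in place of 12.6, and the density was 15.3 per Mb in place of 24.1. At a p of 1e-20 the density was 18.2 per Mb. In the whole list the median fold with an FDR of at most 5% was 13.49. These limits keep fewer regions by construction. No paired analysis was possible because each group has 1 library. Thin regions limit what can be said: 24 of the 174 had an FDR of 100%.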

Other observations

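Some member regions were neighbours that the authors' caller listed apart. Of the 174 regions, 6 neighbouring pairs lay no more than 500 bp apart, and joining them left 168. They were in Hdac4 (389 and 40 bp), Setd1b (196 and 124 bp), Prdm2 (98 bp) and Kmt2a (43 bp).

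The 30 members without a region differed in how far the next one lay. The median distance was 23.4 kb and the longest, for Kdm6a, was 130.0 kb. Another 4 would have been included with a flank of 10 kb: Suv39h2, Kmt5a, Kdm4b and Sirt3. The nearest region of Prdm13, 88.3 kb away, had a 69.2-fold excess with 74 tags.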
